A study of Saccharomyces cerevisiae with 5 samples.

Results

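The 10 genes described here make tryptophan or the pyrimidine precursor UMP in *Saccharomyces cerevisiae*. They are TRP1 (YDR007W), TRP2 (YER090W), TRP3 (YKL211C), TRP4 (YDR354W), TRP5 (YGL026C), URA1 (YKL216W), URA2 (YJL130C), URA3 (YEL021W), URA4 (YLR420W) and URA5 (YML106W). They were chosen by name, and all 10 were present among the 5264 host genes of each library and passed the filter on low signal, as did 5252 host genes in all. Nucleosomes were mapped in 5 strains, each with an insert from another yeast species on an artificial chromosome (YAC), a linear vector copied like a host chromosome. Strains YAC1, YAC2 and YAC3 carried inserts from *Kluyveromyces lactis* (n = 3) and YAC6 and YAC7 inserts from *Debaryomyces hansenii* (n = 2), with 1 library of mononucleosomal DNA per strain after micrococcal nuclease digestion. No strain without an artificial chromosome was analysed here, and the labels give neither the host genotype, the vector nor the genes on it. The growth label names medium lacking tryptophan and uracil, and in the same line yeast extract, peptone, dextrose and adenine.

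In yeast, tryptophan is made from chorismate by enzymes that stand largely under general amino acid control, in which the activator Gcn4 acts when amino acids run short. UMP is made from glutamine, bicarbonate and aspartate, and the activator Ppr1 turns on several URA genes when pathway intermediates build up. TRP1 and URA3 are also common selectable markers, because a plasmid or artificial chromosome that carries an intact copy lets a mutant host grow without the product.

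Each gene had a profile of coverage signal in bins of 10 bp from -500 to +1000 bp around its listed start. The level of a gene is log2 of its mean signal over all bins, divided by the median of that mean over the host genes of the same chromosome and library. Reads of a host copy and of a vector copy of a gene cannot be told apart in these tables. The libraries are of whole cultures, so the number of DNA copies per cell, the share of cells that hold them and the nucleosome occupancy of each copy cannot be told apart either. Depth in reads is unknown. The mean host signal was between 396 steps per bin (YAC3) and 1739 (YAC1), a step being the smallest difference between values of a table. Whole chromosomes departed from the library median in some libraries, with chromosome IV, which holds TRP1 and TRP4, at -0.67 (log2) in YAC3 and between -0.13 and 0.07 in the others. Chromosome V, which holds URA3 and TRP2, stood at 0.56 in YAC3, 0.27 in YAC2 and between 0.01 and 0.04 in the others. The highest whole chromosome was I in YAC7, at 1.26, which holds none of the 10 genes. The SD of levels over all host genes ran from 0.30 in YAC6 to 0.52 in YAC3.

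TRP1 and URA3 had the highest levels of the 10 genes. TRP1, which encodes phosphoribosylanthranilate isomerase, had a mean signal of 1.53 in YAC1, 2.21 in YAC2 and 1.45 in YAC3, and of 1.68 and 1.85 in the *D. hansenii* strains YAC6 and YAC7. Relative to chromosome IV these were levels of 0.70, 0.81, 1.09, 0.79 and 1.05 (log2), or 1.63, 1.76, 2.14, 1.72 and 2.07 times the chromosome's median gene. All 5 libraries lay above the chromosome median, YAC3 and YAC7 highest, and the *K. lactis* and *D. hansenii* strains overlapped. The mean level was 0.89 ± 0.17 (SD, n = 5) with a limma standard error of 0.17 and an adjusted p of 0.0026. Of 5249 host genes with a chromosome, 42 (0.800%) had a higher mean level.

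URA3, which encodes orotidine-5′-phosphate decarboxylase, the last enzyme of UMP synthesis, had a mean signal of 1.53, 2.43, 2.89, 1.81 and 1.94 in YAC1, YAC2, YAC3, YAC6 and YAC7. Its levels on chromosome V were 0.57, 0.75, 0.85, 0.85 and 0.95 in the same order. Again all 5 libraries lay above the chromosome median, YAC1 being lowest. Unlike for TRP1, the strain groups did not overlap. The highest *K. lactis* value, 0.8515 in YAC3, lay just under the lowest *D. hansenii* value, 0.8536 in YAC6. The mean was 0.80 ± 0.14 (SD, n = 5), 1.74 times the chromosome's median gene, with a limma standard error of 0.13 and an adjusted p of 0.0013. For URA3, 85 host genes (1.62%) had a higher mean level.

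A level held in every library was rarer than a high mean. Only 7 of the 5249 genes had a lowest level across the 5 libraries above that of TRP1, and 12 above that of URA3. The 7, named after their values were seen, were CSM3, NUP116 and ERB1 on chromosome XIII, BIO2 on VII, IMD2 on VIII, GAL3 on IV and THP1 on XV. CSM3 had the highest of these lowest levels, 1.19, against 0.70 for TRP1 and 0.57 for URA3. GAL3, which encodes the galactose sensor, is the next listed host gene downstream of TRP1. Within single libraries, TRP1 stood at percentiles 96.8 (YAC1) to 99.6 (YAC6) of all levels and URA3 at 93.7 (YAC1) to 99.6 (YAC6).

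Calls of a level above or below the chromosome median were common over all genes, so the size of a level says more here than the call. In limma over all host genes, 5 of the 10 genes were called above their chromosome median (TRP1, TRP3, TRP4, TRP5 and URA3), against 34.2% of all genes tested. A further 4 were called below (TRP2, URA2, URA4 and URA5), against 33% of all genes, and URA1 was not called. With YAC2 and YAC3 left out, the libraries in which chromosome V or IV lay farthest from the library median, the mean level was 0.85 for TRP1 and 0.79 for URA3, but over 3 libraries limma called neither (adjusted p = 0.108 and 0.0750).

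**Figure D1:**
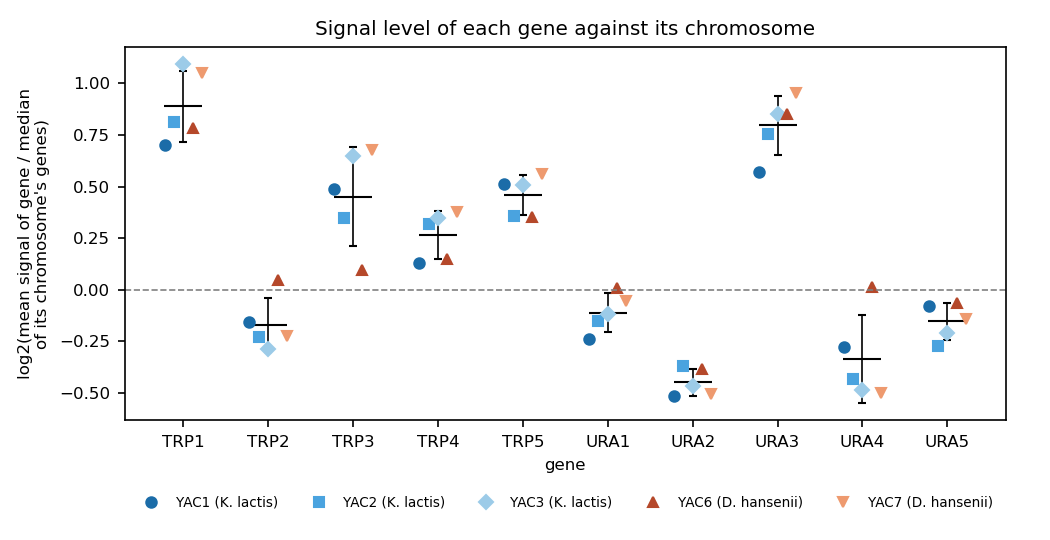
Level of each of the 10 genes (log2 of mean signal over the median of its chromosome's host genes, y axis), with 1 point per library, the mean as a bar and the SD over 5 libraries as whiskers. TRP1 and URA3 lie above 0.5 in all 5 libraries, and TRP3, TRP4 and TRP5 lie above 0 in all 5, TRP3 reaching 0.68.

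Among the other tryptophan genes, 3 stood above their chromosomes. TRP5, which encodes tryptophan synthase, had levels of 0.51, 0.36, 0.51, 0.35 and 0.56 in YAC1, YAC2, YAC3, YAC6 and YAC7 (mean 0.46, adjusted p = 0.000841 in limma). TRP3, whose product combines indole-3-glycerol-phosphate synthase with a subunit of anthranilate synthase, had 0.49, 0.35, 0.65, 0.10 and 0.68 (mean 0.45, adjusted p = 0.00276 in limma). TRP4, anthranilate phosphoribosyltransferase, ran from 0.13 (YAC1) to 0.38 (YAC7), with a mean of 0.26. TRP3 varied most, the *D. hansenii* strain YAC6 being lowest and YAC7 highest, so that these strains spanned all others. TRP2, the other anthranilate synthase subunit, had a mean of -0.17 (adjusted p = 0.0306 in limma), with 0.05 in YAC6 and values from -0.29 to -0.16 in the other libraries. That call was lost without YAC1, YAC2, YAC3 or YAC7, and over 0 to 500 bp TRP2 stood at 0.19. The calls of TRP3 and TRP4 were lost with the median of the whole library as reference (means 0.14 and 0.10), as was that of TRP5 (0.16). That reference leaves shifts of whole chromosomes in the level. Chromosome VII, which holds TRP5, stood at -0.83 in YAC2 and -0.57 in YAC3. Chromosome XI, which holds TRP3 and URA1, stood at -0.80 and -0.59 there. Against the library median, TRP1 stood at 0.72 and URA3 at 0.98, and limma still called both.

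The other uracil genes all had mean levels below 0. URA2, which encodes the large protein with carbamoyl-phosphate synthetase and aspartate transcarbamylase activity, was lowest, with -0.52, -0.37, -0.47, -0.39 and -0.50 in YAC1, YAC2, YAC3, YAC6 and YAC7 (adjusted p = 0.000841 in limma). Its 5 values were the tightest of the 10 genes (SD 0.07) and all lay below the chromosome median. The level of URA2 carries a limit, because its listed start stands apart, as described below with its promoter. Its window may thus be placed differently along the gene than those of the others, which was not tested. URA4, dihydroorotase, had a mean of -0.34 (adjusted p = 0.00733 in limma), with 0.01 in YAC6 and -0.50 to -0.28 in the others. URA5, the major orotate phosphoribosyltransferase, had a mean of -0.15 and URA1, dihydroorotate dehydrogenase, of -0.11. The call of URA5 was lost without YAC1, YAC2, YAC3 or YAC7, URA1 was called below without YAC6 (-0.14), against the 20 nearest genes (-0.37) and against the library median (-0.42), and URA4 was not called over 0 to 500 bp (-0.03) or against the library median (-0.19). In the order of levels, TRP1 and URA3 overlapped each other, and TRP3 in YAC7 (0.68) reached into the range of URA3. TRP3, TRP5 and TRP4 overlapped, as did URA1, URA5, TRP2 and URA4, and URA4 with URA2. The lowest single value of the upper 5 genes (TRP3 in YAC6, 0.10) lay above the highest of the lower 5 (TRP2 in YAC6, 0.05).

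Within each library both markers stood above the other genes of their pathway. The level of TRP1 exceeded the mean level of TRP2 to TRP5 by 0.46, 0.61, 0.79, 0.63 and 0.70 (log2) in YAC1, YAC2, YAC3, YAC6 and YAC7. The mean difference was 0.64 ± 0.12 (SD, n = 5), a fold of 1.56. URA3 exceeded the mean of URA1, URA2, URA4 and URA5 by 0.85, 1.06, 1.17, 0.96 and 1.25, on average 1.06 ± 0.16 (SD, n = 5), a fold of 2.08. URA2, whose level carries the limit given above, enters the mean of the other URA genes. Both differences were positive in 5 of 5 libraries, and the exact two-sided sign-flip permutation test gave p = 0.0625 for each, the smallest p that 5 libraries allow.

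The same held between genes of 1 chromosome, where no chromosome reference enters. TRP1 had 1.49, 1.41, 1.68, 1.56 and 1.60 times the mean signal of TRP4, both on chromosome IV, in YAC1, YAC2, YAC3, YAC6 and YAC7. URA3 had 1.66, 1.97, 2.20, 1.75 and 2.26 times the signal of TRP2, both on chromosome V. The ratio to TRP4 was the steadier one (log2 0.63 ± 0.10, SD, n = 5, against 0.97 ± 0.20 for URA3 over TRP2). Each exact two-sided sign-flip permutation test again gave p = 0.0625, higher in 5 of 5 libraries.

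Other genes used as laboratory markers did not show such levels. Of HIS3, LEU2, LYS2, ADE2, HIS5, CAN1 and MET17, 0 of 7 were called above their chromosome median in limma (34.2% of all genes were), 0 also at an unadjusted p under 0.05. Called below were 4 (LEU2, CAN1, HIS5 and ADE2), against 33% of all genes. The highest was HIS3, in histidine synthesis, with 0.32, 0.03, 0.48, -0.29 and 0.45 in YAC1, YAC2, YAC3, YAC6 and YAC7. Its highest value, 0.48 in YAC3, lay below the lowest of URA3, 0.57 in YAC1. Insert genes on the artificial chromosomes had a median signal of -0.30 to 0.18 (log2) against the host median in deposited units and of -0.75 to 0.16 in steps. These insert and host medians were taken over the bins from the start onward, unlike the level, which uses all bins. Host and insert tables had the same step in YAC2, YAC3 and YAC6, with values of -0.30, 0.16 and -0.02 in either unit. The insert step was 1.77 times the host step in YAC1 and 1.29 times in YAC7. For YAC1 and YAC7 this comparison across tables is only a rough one.

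The raised signal was not even along the windows. Each window was split into segments of 250 bp, and each segment was set against the same segment of the chromosome's genes. Over the first 250 bp from its start, TRP1 had log2 values of 1.42, 1.56, 1.98, 1.21 and 1.90 in YAC1, YAC2, YAC3, YAC6 and YAC7 (mean 1.61 ± 0.33, SD, n = 5, a fold of 3.06). The 3 segments from 250 to 1000 bp had means of 0.91, 0.79 and 0.86, and that from -250 to 0 bp 0.86, each positive in 5 of 5 libraries. Farther upstream, from -500 to -250 bp, the values were -0.32, 0.03, 0.96, -0.68 and 0.26, with both signs in both strain groups. So TRP1 stood above its chromosome from about 250 bp upstream to the end of the window, which runs past its 675 bp coding length (per RefSeq).

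The high stretch ran on into GAL3, whose upstream side faces the end of TRP1. From -500 to -250 bp of GAL3 the mean was 1.38 and from -250 to 0 bp 2.52, a fold of 5.72, with values of 2.27 (YAC2) to 2.90 (YAC7). The chromosome's median gene is low in that second segment, and GAL3 had a promoter ratio (defined below) of 1.28 on average where the host median was negative. Past the GAL3 start the means dropped to 0.54, -0.09, 0.35 and 0.63. On the other side, SOK1, the upstream neighbour of TRP1, had whole-window levels of 0.43, 0.47, 1.02, 0.08 and 0.79, and SNQ2, beyond GAL3, 0.61, 0.35, 0.76, 0.09 and 0.88 in YAC1, YAC2, YAC3, YAC6 and YAC7. Both were near 0 in YAC6, where TRP1 stood at 0.79 and GAL3 at 0.91. Within SNQ2, the segments from 0 to 250 bp and from 250 to 500 bp had means of 1.18 and 1.15. Each was positive in 5 of 5 libraries, while the mean from 500 to 750 bp was -0.07. From -500 to -250 bp SOK1 had a mean of 1.50, and its window may share DNA with that of TRP1. The next genes outward had mean levels of -0.01 (MAF1), -0.07 (RCR2) and -1.05 (RPL4B, a ribosomal protein gene).

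URA3 was high over its body and low just upstream of its start. Its first 250 bp had 1.15, 1.26, 1.44, 1.51 and 1.78 (log2) in YAC1, YAC2, YAC3, YAC6 and YAC7, a mean of 1.43 ± 0.24 (SD, n = 5), and the next 2 segments had means of 0.91 and 1.17. From 750 to 1000 bp, around the end of its 804 bp coding length (per RefSeq), the mean was 0.37. From -250 to 0 bp it was below its chromosome in all 5 libraries, with a mean of -0.56, and from -500 to -250 bp above in all 5, with 0.62. The upstream neighbour GEA2 had a mean level of -0.50 and stood at -0.02 to -1.38 in its 6 segments. TIM9, the next gene downstream, had 1.37 from -500 to -250 bp, on the side of URA3, then 0.35 and 0.33, and -0.80 from 250 to 500 bp. Its signals from -500 to -250 bp were 2.02, 3.49, 4.48, 2.33 and 2.46 in YAC1, YAC2, YAC3, YAC6 and YAC7. URA3 had 2.09, 3.42, 4.50, 2.32 and 2.50 from 500 to 750 bp. Windows of neighbouring genes can cover the same DNA, so these are not separate measurements. From 500 to 750 bp TIM9 ranged from -3.97 in YAC6 to 1.43 in YAC3, the widest spread of the TIM9 segments. The other genes near URA3 had mean levels of -0.56 (YEL023C), 0.09 (RIP1), 0.23 (PXP1) and 0.23 (MMS21).

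**Figure D2:**
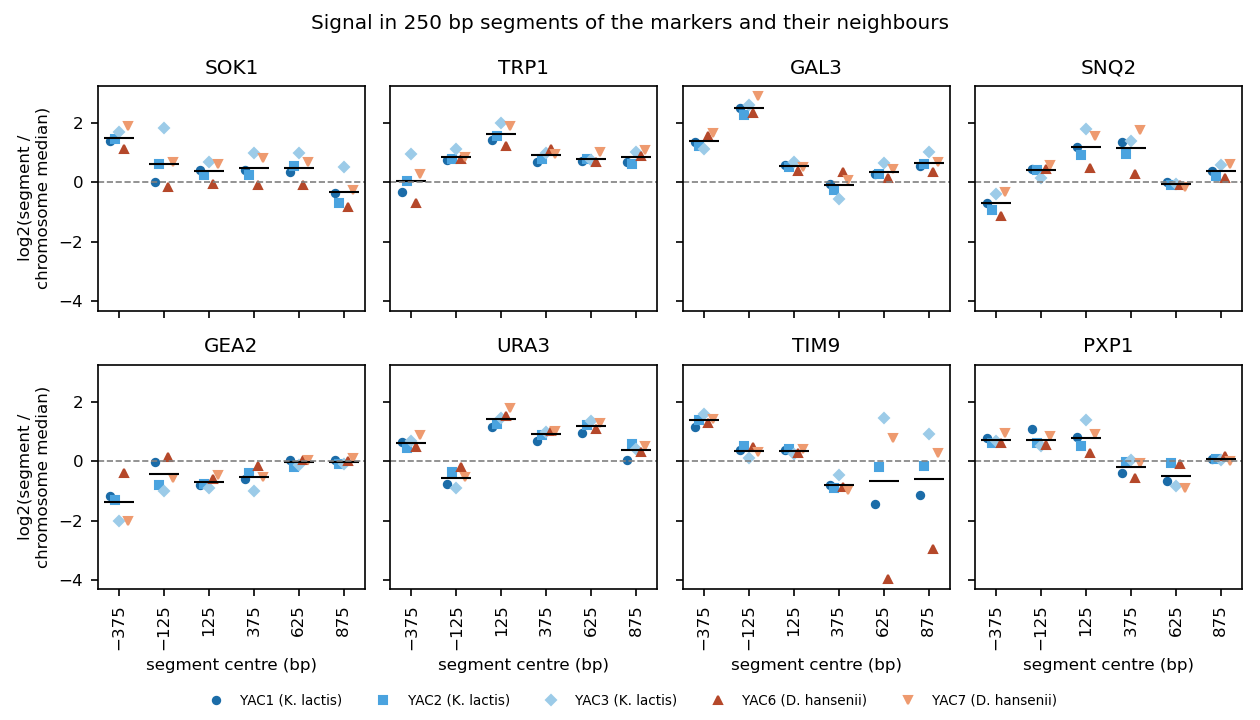
Log2 of the signal in each 250 bp segment over the median of the same segment on the chromosome (y axis) against the segment centre in bp from the listed start, for TRP1 and URA3 with neighbouring genes, with 1 point per library and the mean as a bar. TRP1 is above 0 in all libraries from -250 bp onward, URA3 from 0 bp onward, and GAL3 peaks at 2.52 just upstream of its start.

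**Figure D3:**
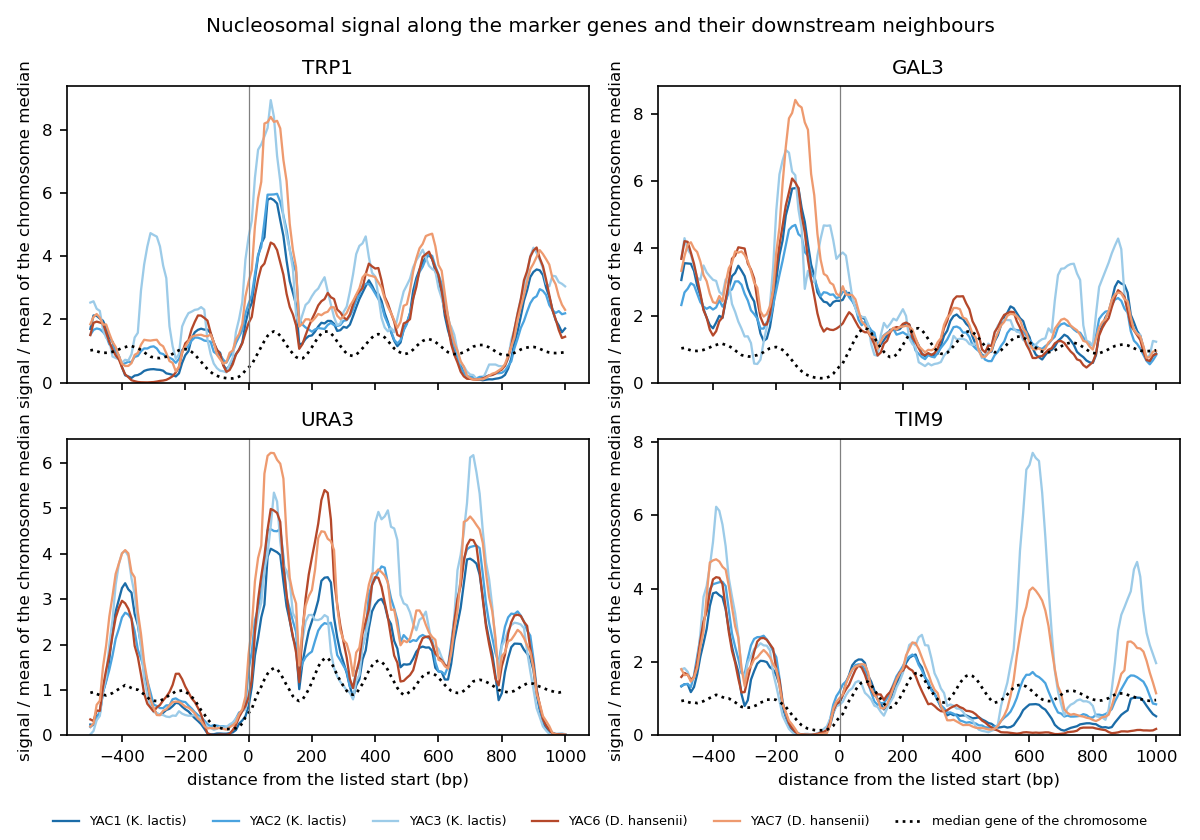
Signal along TRP1, GAL3, URA3 and TIM9 in each library, divided by the mean of the chromosome's median profile (y axis), against distance from the listed start in bp, with the median gene of the chromosome dotted. The first nucleosome peak of TRP1 (60 to 80 bp) and of URA3 (80 bp) rises above the dotted line in all 5 libraries.

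The promoters of the 10 genes differed widely: 3 were more depleted of nucleosomes than the host median, 4 less, and 3 were not called. The promoter ratio compares the promoter window (-120 to -20 bp) with the gene body (+100 to +500 bp) as log2 of the quotient of their mean signals, each raised by a pseudocount of 0.1 gene means. It divides out the overall level of a gene, and a lower value means a promoter more depleted of nucleosomes. The host median was -2.28, -1.76, -1.74, -2.28 and -1.89 in YAC1, YAC2, YAC3, YAC6 and YAC7, and ratios were tested as differences from it. In limma, 3 of the 10 genes were called below the host median (TRP2, TRP5 and URA3) against 32.2% of all genes, and 4 above (TRP1, TRP3, URA1 and URA2) against 32.3% of all genes. These shares are near the background, so the counts say nothing particular of the pathways. The promoters of TRP4, URA4 and URA5 were not called.

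The markers lay on opposite sides. URA3 was 0.94, 0.70, 0.92, 0.93 and 0.95 below the host median in YAC1, YAC2, YAC3, YAC6 and YAC7 (mean difference -0.89, standard error 0.10, limma adjusted p = 9.31e-05). TRP1 was 1.17, 0.69, 0.33, 0.98 and 0.68 above it (0.77, standard error 0.16, limma adjusted p = 0.0028). No library of the one overlapped any of the other. The promoter of URA3 held a mean signal of 0.09 to 0.37 and its body 2.08 to 3.84, whereas the promoter of TRP1 held 0.52 to 1.21 and its body 1.63 to 2.78.

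The shape of the profiles showed where the low stretch lay. In URA3 the signal stayed under 0.5 times the gene's mean from -310 to -10 bp, a width of 310 bp against a median of 150 bp and a 95th percentile of 340 bp over host genes. Peaks followed at 80, 240, 420, 550, 710 and 850 bp in the mean profile, the first at 80 bp in every library. TRP1 had its lowest 100 bp centred at -315 (YAC6) to -385 bp (YAC7) in 4 libraries, far upstream of the host median of -75 bp, and at -85 bp in YAC3. Its first peak, at 70 bp in the mean profile, was 2.88 times the gene's mean, and later peaks lay at 240, 380, 560 and 910 bp. URA3 kept nearly one shape across libraries, with a median Pearson r of 0.933 over the 10 library pairs, against 0.863 for TRP1 and 0.863 for the median host gene.

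The open promoters besides URA3 were those of TRP2 and TRP5. TRP2 had the lowest mean ratio of the 10 genes, -3.004, with -3.37, -2.87, -2.42, -3.33 and -3.03 in YAC1, YAC2, YAC3, YAC6 and YAC7 (mean difference from the host median -1.01, limma adjusted p = 7.46e-05). Its low stretch ran from -200 to -20 bp, with a peak at 70 bp and a higher one at 230 bp. TRP5 had -3.14, -2.79, -2.64, -2.95 and -2.96 (mean difference -0.90, limma adjusted p = 0.000116), a low stretch from -130 to 0 bp, and peaks at 90 and 250 bp. Both genes lay below the host median in 5 of 5 libraries. The profile of TRP2 was steady across libraries (median r = 0.934 over 10 pairs), whereas that of TRP5 was the least steady of the 10 genes (0.686).

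Promoters called above the host median are termed filled here, though the mean ratios of TRP1, TRP3, URA1 and URA2 were still negative. The low stretch of TRP3 lay upstream of the promoter window, and that of URA1 overlapped its upstream part. TRP3 had ratios of -1.73, -1.03, -1.33, -1.55 and -1.31 in YAC1, YAC2, YAC3, YAC6 and YAC7 (mean difference from the host median 0.60, limma adjusted p = 0.00377). Its deepest stretch ran from -350 to -260 bp, and a nucleosome peak stood at -170 bp between it and the start, before peaks at 80 and 250 bp. URA1 had a mean difference of 0.70 (limma adjusted p = 0.0032), with a low stretch from -260 to -70 bp that ended before the promoter window did and a first peak at 20 bp. URA1 lay above the host median in 5 of 5 libraries, from 0.42 in YAC1 to 1.11 in YAC3. Against its chromosome, URA1 was low in every library both from -250 to 0 bp (mean -0.89) and from 250 to 500 bp (-0.57). The latter segment lies in the body window of the ratio.

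URA2 had the highest mean ratio of the 10, -0.99, but its listed start stands apart. Its differences from the host median were 1.40, 0.70, 0.38, 1.98 and 0.55 in YAC1, YAC2, YAC3, YAC6 and YAC7 (mean 1.00, limma adjusted p = 0.00608). The 20 host genes nearest to URA2 on chromosome X had their lowest 100 bp at a median of 185 bp downstream of the listed start, where the host median is -75 bp, and a median ratio of 0.16. The first strong peaks of URA2 lay at 390 bp (1.94 times the gene's mean) and 560 bp (3.59 times). Whether its start is listed in the wrong place was not tested, and its ratio may not describe its promoter. With the promoter window at -150 to 0 bp the call was lost (0.55, limma adjusted p = 0.05004).

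The remaining 3 genes were not called. TRP4 had a mean difference of -0.07 (limma adjusted p = 0.593) with a low stretch from -110 to 10 bp, and URA4 of 0.12 (0.451) with one from -140 to -40 bp. With the whole window in the denominator URA4 was called filled (0.35, limma adjusted p = 0.0364). URA5 had -0.33, -0.43, 0.06, -0.85 and -0.07 in YAC1, YAC2, YAC3, YAC6 and YAC7 (mean -0.32, limma adjusted p = 0.0887). Its low stretch was the widest, from -130 to 200 bp, so its body window was low too (signal 0.43 to 0.92). With that denominator URA5 was called open (-1.08), and likewise with a pseudocount of 0.02 (-0.997) and without YAC3 (-0.42).

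**Figure D4:**
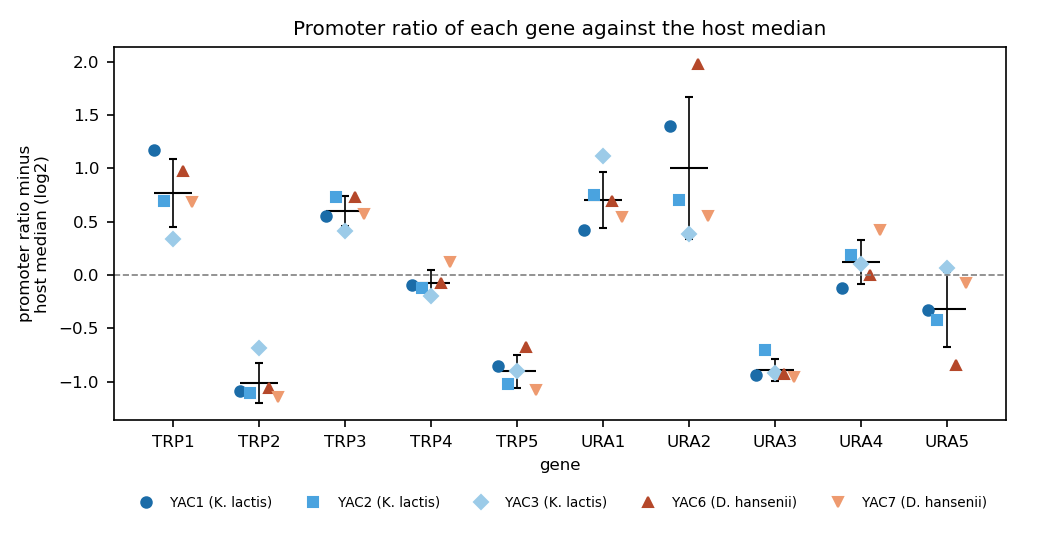
Promoter ratio of each gene minus the host median of the same library (log2, y axis), with 1 point per library, the mean as a bar and the SD over 5 libraries as whiskers. TRP2, TRP5 and URA3 lie below 0 in all 5 libraries, and TRP1, TRP3, URA1 and URA2 above.

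**Figure D5:**
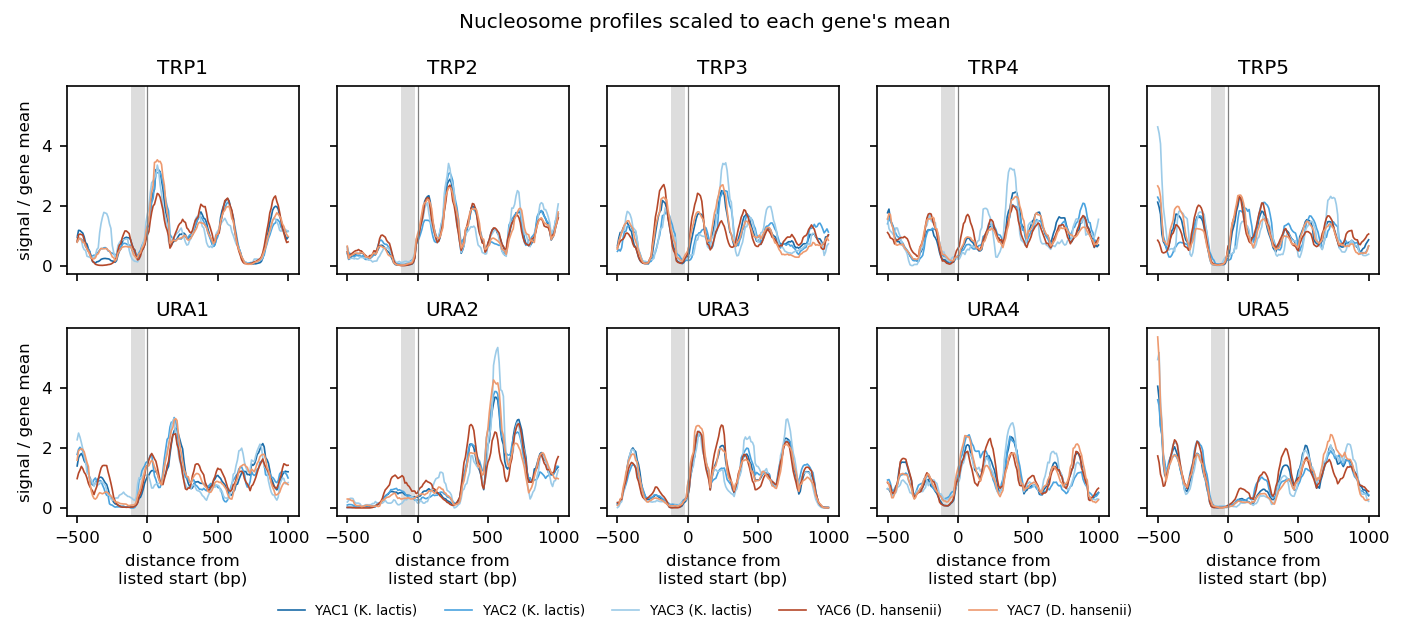
Nucleosome profiles of the 10 genes, as signal over the gene's mean (y axis) against distance from the listed start in bp, 1 line per library, with the promoter window of -120 to -20 bp in grey. URA3, TRP2 and TRP5 are near 0 in the grey window, TRP3 has a peak just upstream of it, and URA2 is low until its peak at 390 bp.

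By shape alone, the host genes most like the markers lay on other chromosomes. Over all bins of the profile averaged over 5 libraries, TRP1 was most like MIC19 (Pearson r = 0.853), DFR1 (0.843) and SRC1 (0.840). URA3 was most like MGE1 (0.875), EMG1 (0.846) and IES2 (0.839). The bins of a profile neighbour each other, so these values are descriptions.

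The *K. lactis* and *D. hansenii* strains were compared gene by gene with limma. No gene of the 10 was called for the promoter ratio, against 0% of 5252 genes, nor for the level, against 0% of 5249 genes. At an unadjusted p under 0.05 the counts were 0 of the 10 genes for either measure, and 7 and 6 of all genes. The level of TRP1 was 0.87 ± 0.20 (SD) in the *K. lactis* strains and 0.92 ± 0.19 in the *D. hansenii* strains (difference -0.05, standard error 0.47), and that of URA3 0.73 ± 0.14 and 0.90 ± 0.07 (difference -0.18, standard error 0.33). These limma standard errors draw on the spread of all host genes, and for both genes they exceed the SD within either strain group. They also exceed the differences, so with 3 strains against 2 limma could not detect differences of that size.

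The genes around the 2 pathways held open and filled promoters alike. Of 9 genes for the chorismate pathway and its phenylalanine and tyrosine branches, 5 were called below the host median in limma (ARO1, ARO2, ARO3, ARO7 and ARO8) and 2 above (ARO4 and PHA2), against 32.2% and 32.3% of all genes. Their median ratio was -2.36, against -1.97 over all host genes. ARO3, a first enzyme of the pathway (DAHP synthase), had the lowest mean ratio, -2.97, and PHA2, prephenate dehydratase, the highest, -0.28. Of 9 other pyrimidine nucleotide genes in the tables, 4 were called below (URA7, URA10, URK1 and FUR1) and 2 above (URA8 and CDC8), against the same 32.2% and 32.3%, and the median ratio was -1.69. URA7 and URA8, both CTP synthases, had the lowest and the highest mean ratio of this list, -3.26 and 0.54. URA8 and CDC8 lie on chromosome X like URA2, and the 20 genes nearest to each had their lowest 100 bp at a median of -335 and -355 bp, so their ratios too may not describe their promoters. In level, 5 of the 9 chorismate pathway genes were called above their chromosome median and 3 below (34.2% and 33% of all genes), with ARO2, chorismate synthase, highest at 0.48. Of the 9 other pyrimidine genes, 4 were called above and 3 below, against the same shares, and URA8 was highest at 0.60, under the mean levels of both markers.

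The lists of uptake genes and regulators are short, so their counts of calls say nothing particular of them. Over all genes, 32.2% were called below the host median of the ratio and 32.3% above. Of the permease genes TAT1, TAT2, FUR4 and FUI1, the tryptophan permease gene TAT2 had the lowest mean ratio (-2.82) and was called below the host median in limma with TAT1. The uridine permease gene FUI1 had the highest (-1.93), and 0 of the 4 were called above, 0 also at an unadjusted p under 0.05. GCN4, the activator of general amino acid control, had a mean ratio of -1.68 and was not called (limma adjusted p = 0.363), with the lowest level of these lists, -0.79. PPR1, the activator of URA genes, had -1.11 and was called above the host median (limma adjusted p = 0.000653). Among the 7 other laboratory marker genes, HIS3 had the lowest mean ratio (-3.67), LEU2 and LYS2 were also called below, and HIS5 (-1.09) was the one called above.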

How the data were processed

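Mononucleosomal DNA of 5 strains was sequenced, and CASAVA 1.7.0 was used, per the submitters' processing notes. The source of the start sites, the genome build and the aligner were not given in the sources used here. Per the file headers, the deposited values are signal (coverage) in bins of 10 bp around each start, and the authors had scaled them: a table has a mean near 1 and whole multiples of 1 step (100% of values within 0.02 steps). Depth is known only in steps, so no counting interval was computed.

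Levels, promoter ratios and segments were computed as defined in the report with Python 3.11.15. A gene entered the tests if its mean signal was at least 10% of the host median in each library. Names, neighbours and coding lengths came from RefSeq assembly R64 (5261 of 5264 genes matched, 214 after the suffix letter of the name was put back), and 5249 genes had a chromosome to set a level against. Tests were limma 3.58.1 (empirical Bayes with a mean trend, R 4.3.3) over all host genes, with Benjamini-Hochberg adjustment and a threshold of 0.05, and the exact sign-flip test over libraries. Only the limma fits were also run on simulated data, with the outcome not reported here. The labels do not say whether strains are independent clones, so p-values speak for these 5 libraries only. Those of limma rest on a variance that also draws on the spread of the other host genes.

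Alternatives were other references, stretches, windows, pseudocounts (0.02 and 0.5), no filter, no mean trend, no genes of chromosomes II and X, and libraries left out. Named genes are the 10 genes, 3 neighbours on each side of TRP1 and URA3, the lowest and highest promoter ratio of each list, genes a count turns on, and the 3 profiles most like each marker. The genes and lists were chosen with earlier results of these data known. Promoter sequences were not used here.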

Additional observations from a re-analysis of the deposited data

How the results depend on the processing

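The level of TRP1 kept its call under all alternatives but one, at 0.84 to 0.94 with 1 library left out, 0.92 against the 20 nearest genes, 0.72 against the library median and 1.27 over 0 to 500 bp, and that of URA3 likewise (0.76 to 0.85, 0.78, 0.98 and 1.13). Without YAC2 and YAC3, an alternative chosen after seeing the data, limma called neither (0.85, adjusted p = 0.108, and 0.79, adjusted p = 0.0750), with 3 libraries in the fit. With 1 library left out, TRP1 minus TRP2 to TRP5 ran from 0.60 to 0.68 and URA3 minus the other URA genes from 1.01 to 1.11. With 1 library left out the count of open promoters was 3 to 4, that of filled ones 4 and that of genes differing between strain groups 0, and over the alternatives run the count of filled promoters went from 3 to 5. The level of TRP2 turned to 0.19 (adjusted p = 0.0258) over 0 to 500 bp and to 0.0132 against the library median, where that of URA5 was 0.0101. Values that were called neither way also changed sign: the level of URA1 over 0 to 500 bp (0.00284), and the ratio differences of TRP4 with the whole window (0.0717) and without chromosomes II and X (0.0235), and of URA4 (-0.0230) and URA5 (0.129) with a pseudocount of 0.5. A level against the library median also holds the shift of the whole chromosome. That shift was above 0 in every library for chromosomes V (TRP2) and XIII (URA5). The cause of the other sign changes was not tested. Levels of TRP2 and URA5 lost their calls with 1 library left out in 4 of 5 cases each. Over the single genes, 189 of 225 repeats kept direction and call, 21 lost the call, 7 gained it and 8 changed sign. Depth is unknown in reads, and 3 strains against 2 limit the group comparison. No paired analysis was possible because the replicate numbers were given in accession order and each strain is its own library.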
